A study of Drosophila melanogaster with 9 samples.

Results

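The genes described here encode structural proteins of the insect cuticle. They are the Cpr genes, whose proteins carry the Rebers-Riddiford chitin-binding domain, the Tweedle (Twdl) genes, the obstructor (obst) genes and Gasp. A gene was taken when its symbol began with Cpr and a digit, with Twdl or with obst-, or was Gasp. This gave 99 of the 11982 genes named on the array: 66 Cpr genes, 24 Twdl genes, 8 obst genes and Gasp. They were followed through the day in heads of Drosophila melanogaster, on 9 Affymetrix arrays. The extracted molecule was total RNA, from a Trizol extraction, and the label of the hybridised material was biotin.

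Every array comes from flies that the submitters label 5073, with no word on genotype, sex, age or lighting, and no other strain was analysed here. Zeitgeber time (ZT) counts the hours from lights-on. Heads were taken at ZT3 (3 arrays), ZT7 (1 array), ZT11 (1 array), ZT15 (2 arrays), ZT19 (1 array) and ZT23 (1 array). The time of day is the only condition that the labels vary between groups. Nothing in the labels says that arrays of one time came from separate flies, so a p-value here measures the spread between arrays, which may be technical.

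Cuticle is a matrix of chitin fibres and proteins that epidermal cells secrete at their outer face. Cpr and Tweedle proteins are structural parts of that matrix. Obst proteins and Gasp are secreted proteins with chitin-binding domains of the peritrophin type, and Gasp is also made by the tracheae. After eclosion flies go on adding endocuticle under the old layers for some days, in daily layers, and a clock in the epidermis times this deposition. The head also carries a special cuticle, the corneal lens of each facet of the eye.

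Levels are GCRMA values on a log2 scale, so that a difference of 1 is a 2-fold difference. The samples had the marker genes of a head: the median over 18 phototransduction genes was 12.19 to 13.00 on all 9 arrays. The arrays differ in more than time. The spiked control bioB had a level of 9.18 on ZT3 replicate 1 and 9.14 on ZT15 replicate 2. It was 8.82 and 7.99 on the other ZT3 arrays, 7.63 at ZT7, 7.83 at ZT11, 7.51 on ZT15 replicate 1, 7.23 at ZT19 and 7.28 at ZT23. The part of this technical difference in the results was not tested. ZT3 replicate 1 and ZT15 replicate 2, called the 2-array set, had a median of 3.70 and 3.44 over 24 genes of testis and accessory gland, against 9.71 and 9.62 on the other ZT3 arrays and 10.81 to 11.60 on the 5 remaining arrays. Their median over 27 gut genes was 5.09 and 4.12, against 5.82 and 5.66 on the other ZT3 arrays and 7.99 to 9.50 on the 5 remaining arrays. The ZT3 arrays outside the 2-array set were thus also lower in these markers than the arrays of later times. The labels do not give the sex of the flies, and whether it differed between arrays was not tested. All 24 testis and accessory gland genes passed the filter on low values, and 2 of 13 ovary genes did. The yolk protein gene Yp1 had levels from 15.56 to 15.91 over the 9 arrays. The main test takes the arrays as they are. Most counts, and the values of many single genes, are also given with the 2-array set as a term in the model (the 2-array block). In whole heads, fewer cells of a type and less RNA per cell cannot be told apart. Whether RNA from outside the head, such as that of testis, accessory gland and gut, added to the cuticle gene levels was not tested.

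Most genes of the set were near background in these heads. A gene was tested when its probe set reached a level of 5 on at least 2 arrays. Of the 99 genes, 34 passed (34.3%), compared with 80.6% of all named genes (9659 of 11982). The 34 were 25 Cpr genes, 5 Twdl genes, 3 obst genes and Gasp. The other 65 had levels between 2.01 and 5.97, and 54 of them varied by less than 1 over the 9 arrays. The untested genes were 41 Cpr genes, 19 Twdl genes and 5 obst genes, and 64 of the 65 reached 5 on no array.

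The filter has an edge, and 6 of the 34 genes passed it through some arrays only. They were Cpr62Ba and Cpr50Cb (3 arrays each), Cpr76Bc (4 arrays), Cpr64Ab (6 arrays), Cpr66D (7 arrays) and TwdlK (8 arrays). The other 28 were above 5 on all 9 arrays. Just inside the filter, by the second-highest level, stood Cpr62Ba at 5.08 and Cpr50Cb at 5.18. Just outside stood Cpr64Ac at 4.94 and Cpr65Av at 4.86.

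Many of these genes lie side by side in the genome. In the RefSeq annotation (Release 6), 55 of the 99 had another gene of the set as a direct protein-coding neighbour, in 18 runs. Of these 55 genes 18 passed the filter, and of the 44 genes with no such neighbour 16 passed. Within a run, passing was mixed. In the longest run, of 6 Tweedle genes (TwdlM, TwdlP, TwdlB, TwdlL, TwdlO and TwdlK), TwdlK alone passed. Of the neighbours Cpr72Ea, Cpr72Eb and Cpr72Ec, Cpr72Ec alone passed, while Cpr62Ba, Cpr62Bb and Cpr62Bc all passed. In 5 runs no gene passed.

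Cpr72Ec, Cpr100A, Gasp and TwdlT had their highest levels between ZT3 and ZT11 and their lowest at ZT15 or ZT19. A cosine and a sine of 24 h were fitted to the 9 arrays with limma, and the amplitude is the height of the fitted curve over its mean, so that the distance from trough to peak is 2 amplitudes. None of the 34 genes passed an adjusted p of 0.05 in the main test, in which 0.0330% of the 12105 probe sets passed. At an unadjusted p under 0.05 there were 10 of 34, compared with 4.33% of all probe sets. All 10 had a fitted peak between ZT3 and ZT10, and 2.72% of all probe sets had such a p and such a peak. That window was set with these data known. It encloses the peaks of the 10 genes, from ZT3.47 (Cpr72Ec) to ZT9.47 (Cpr11B), so counts within it describe these data and test nothing. With the 2-array block, 4 of 34 passed the adjusted threshold, Cpr72Ec, Cpr100A, TwdlT and Gasp, compared with 0.248% of all probe sets. With the block, 18 of 34 had an unadjusted p under 0.05, compared with 16.9% of all probe sets (2045). Such a p together with a peak between ZT3 and ZT10 was found for 16 of 34, compared with 6.98% of all probe sets (845). Cpr60D and Cpr67B had such a p with a peak outside that window. Without the 2-array set the same 4 genes passed, compared with 0.562% of all probe sets, and 18 of 34 had an unadjusted p under 0.05, compared with 28.4%. Such a p together with a peak between ZT3 and ZT10 was found for 15 of 34, compared with 9.50% of all probe sets. After each array was centred on its own median, 3 of 34 (Cpr72Ec, Cpr100A and Gasp) had an unadjusted p under 0.05 in the main test, compared with 1.18%, and 19 of 34 with the block, compared with 14.9%. None passed the adjusted threshold without the block, where 0.00826% of all probe sets did. With the block and centring Cpr72Ec and Cpr100A passed it, compared with 0.132% of all probe sets.

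**Figure D1:**
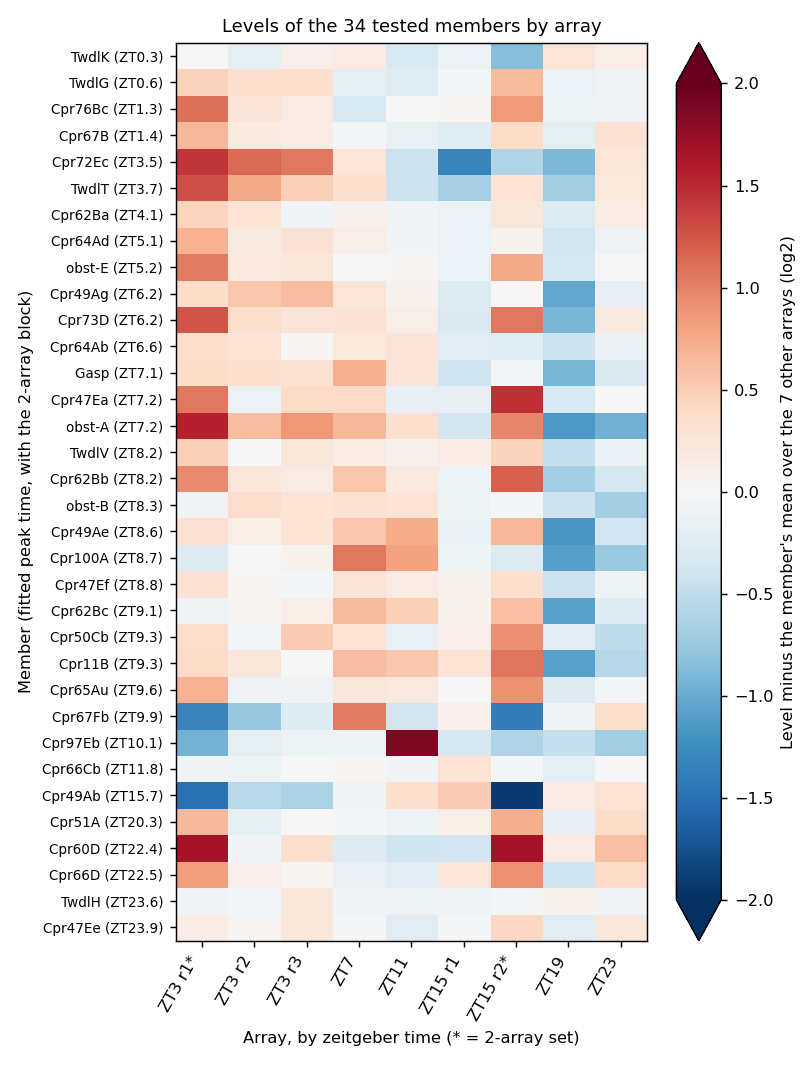
Levels of the 34 tested genes (rows, ordered by fitted peak time) on the 9 arrays (columns, by zeitgeber time, the 2-array set starred), as the difference from each gene's mean over the 7 other arrays on the log2 scale. The ZT19 column is blue for most genes, and the starred columns are red for the genes that were high in the 2-array set.

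The ZT19 array weighs on this pattern. The lowest of the 9 levels was on that single array for 21 of the 34 genes, compared with 26.9% of all probe sets. After median centring it was 22 of 34, compared with 37.2%. When the ZT19 array was left out, 7 of 34 genes had an unadjusted p under 0.05 in the main test, compared with 2.52% of all probe sets, and 17 of 34 with the block, compared with 12.1%. No gene of the set then passed the adjusted threshold in either limma fit, compared with 0.0165% of all probe sets in both. That loss is not particular to ZT19, since no gene passed in the main test with all 9 arrays either. When any 1 of the 7 arrays outside the 2-array set was left out with the block, Gasp and TwdlT passed in 0 of 7 fits. Cpr100A passed in 1 of 7 and Cpr72Ec in 2 of 7. Markers of other tissues were not uniformly low at ZT19: the median over 8 tracheal genes, among them Gasp itself, was lowest there (6.61, against 7.18 to 7.61 on the other 8 arrays), the gut median was 8.76 and the testis and accessory gland median was 11.54. The spiked control bioB was also lowest on the ZT19 array (7.23, against 7.28 to 9.18 on the other 8 arrays). The part of these tissues and of this technical difference in the result was not tested.

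**Figure D2:**
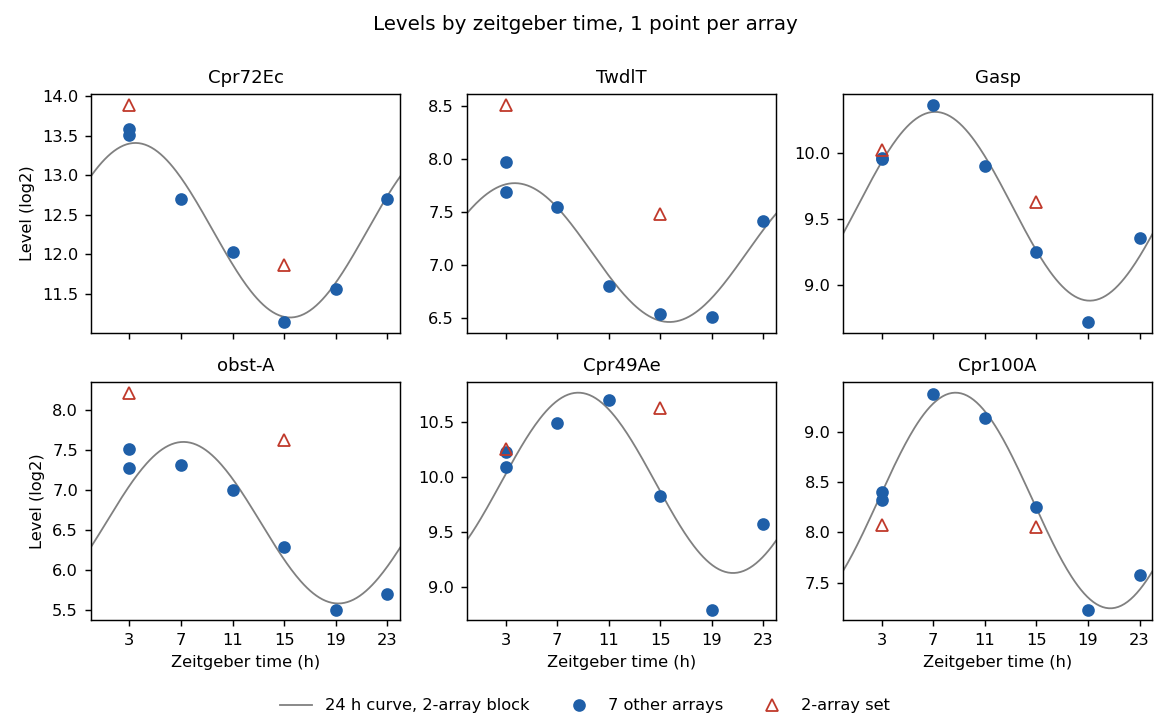
Levels (log2) of 6 genes by zeitgeber time (h), 1 point per array: filled circles are the 7 other arrays, open triangles the 2-array set, and the line is the 24 h curve fitted with the 2-array block. Cpr72Ec and TwdlT are highest at ZT3, Gasp and Cpr100A at ZT7 and Cpr49Ae at ZT11. The curve of obst-A peaks at ZT7.19, while its highest single level is that of the 2-array set at ZT3.

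The Cpr genes, the largest family, held both genes of greatest amplitude. Cpr72Ec encodes a protein of the corneal lens. It had levels of 13.89, 13.59 and 13.51 at ZT3, 12.70 at ZT7, 12.02 at ZT11, 11.14 and 11.86 at ZT15, 11.56 at ZT19 and 12.70 at ZT23. The 3 ZT3 arrays were the highest of the 9 and both ZT15 arrays lay below all of them, in the 2-array set as outside it. The fitted amplitude was 1.08 (SE 0.13, peak ZT3.47, adjusted p = 0.207). With the block it was 1.10 (SE 0.07, peak ZT3.46, adjusted p = 0.0112), a 4.62-fold distance from trough to peak. When 1 of the 7 other arrays was left out in turn, the adjusted p with the block ran from 0.0142 to 0.0949 and stayed under 0.05 in 2 of 7 fits, those without the ZT7 or the ZT11 array, while the amplitude stayed between 1.07 and 1.16.

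Cpr66D encodes another corneal lens protein and is given here, after its values were seen, because of that role. Its levels were 6.04, 5.30 and 5.23 at ZT3, 5.05 at ZT7, 4.98 at ZT11, 5.45 and 6.10 at ZT15, 4.80 at ZT19 and 5.58 at ZT23. It was near the filter, and its highest values were the 2 of the 2-array set. Its amplitude was 0.10 (SE 0.27, unadjusted p = 0.936) and, with the block, 0.11 (SE 0.14). The difference in amplitude between Cpr72Ec and Cpr66D was not tested.

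Cpr100A, a further Rebers-Riddiford protein gene, was highest at ZT7 and ZT11. It had levels of 8.07, 8.32 and 8.40 at ZT3, 9.38 at ZT7, 9.14 at ZT11, 8.25 and 8.06 at ZT15, 7.23 at ZT19 and 7.58 at ZT23. The ZT7 and ZT11 arrays stood above all others and the ZT19 and ZT23 arrays below all others, while the ZT3 and ZT15 arrays overlapped. The 2 arrays of the 2-array set lay at the level of their own times. The amplitude was 1.07 (SE 0.11, peak ZT8.69, adjusted p = 0.102). With the block it was 1.07 (SE 0.07, peak ZT8.73, SE of the peak 0.19 h, adjusted p = 0.0112), a 4.42-fold distance from trough to peak. Leaving out 1 of the 7 other arrays, the adjusted p with the block ran from 0.0489 to 0.0903 and was under 0.05 only without the ZT23 array.

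A group of Cpr genes had fitted peaks near that of Cpr100A without an adjusted p under 0.05. Cpr49Ae had levels of 10.25, 10.09 and 10.22 at ZT3, 10.49 at ZT7, 10.70 at ZT11, 9.82 and 10.62 at ZT15, 8.79 at ZT19 and 9.57 at ZT23. The ZT19 and ZT23 arrays were its lowest, and the ZT15 arrays differed from each other by more than the 3 ZT3 arrays did. Its amplitude was 0.82 (SE 0.20, peak ZT8.73, adjusted p = 0.966). Cpr11B had an amplitude of 0.82 (SE 0.25, peak ZT9.47, adjusted p = 1.0) and Cpr62Bc one of 0.71 (SE 0.19, peak ZT9.11, adjusted p = 1.0). Cpr11B had levels of 7.49, 7.34 and 7.12 at ZT3, 7.72 at ZT7, 7.65 at ZT11, 7.38 and 8.19 at ZT15, 6.02 at ZT19 and 6.53 at ZT23. Cpr62Bc had levels of 6.42, 6.53 and 6.61 at ZT3, 7.11 at ZT7, 6.97 at ZT11, 6.55 and 7.08 at ZT15, 5.39 at ZT19 and 6.22 at ZT23. For both genes the ZT19 and ZT23 arrays were the lowest, and the ZT15 array of the 2-array set was the higher of the ZT15 pair.

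Cpr49Ag lies next but 1 to Cpr49Ae in the genome, with the untested Cpr49Af between them, and had its highest levels earlier. It had levels of 8.78, 8.97 and 9.03 at ZT3, 8.66 at ZT7, 8.48 at ZT11, 8.14 and 8.42 at ZT15, 7.38 at ZT19 and 8.25 at ZT23. All 3 ZT3 arrays lay above all others. The amplitude was 0.59 (SE 0.15, peak ZT6.22, adjusted p = 0.966), and with the block 0.59 (SE 0.14, adjusted p = 0.214). Cpr64Ab, near the filter with levels from 4.78 to 5.54, had an amplitude of 0.36 (SE 0.08, peak ZT6.66, adjusted p = 0.830). Cpr64Ad, its neighbour but 1, with levels from 5.62 to 6.68, had one of 0.28 (SE 0.11, peak ZT5.21, unadjusted p = 0.0895). With the block Cpr64Ad had an amplitude of 0.29 (SE 0.06, unadjusted p = 0.00385, adjusted p = 0.164).

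Cpr65Au, which passed no test of a rhythm, had levels of 13.85, 13.10 and 13.10 at ZT3, 13.39 at ZT7, 13.36 at ZT11, 13.15 and 14.05 at ZT15, 12.91 at ZT19 and 13.13 at ZT23. Its 2 highest arrays were those of the 2-array set, and the 7 others spanned less than 0.5. The amplitude was 0.21 (SE 0.22, unadjusted p = 0.623) in the main test and 0.21 (SE 0.07, unadjusted p = 0.0577) with the block.

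The remaining 11 tested Cpr genes are given so that each tested gene is accounted for, after their values were seen. None had an unadjusted p under 0.05 in the main test, and 4 of them had one with the block: Cpr62Bb, Cpr67B, Cpr73D and Cpr47Ef. Cpr62Bb had levels of 8.79, 8.07 and 8.01 at ZT3, 8.39 at ZT7, 8.04 at ZT11, 7.73 and 9.04 at ZT15, 7.17 at ZT19 and 7.49 at ZT23. Its amplitude with the block was 0.52 (SE 0.11, peak ZT8.25, adjusted p = 0.176). The arrays of the 2-array set were its highest 2, and the order of the 7 others was like that of its neighbour Cpr62Bc in that ZT7 came first and ZT19 last.

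Cpr73D had levels of 9.40, 8.50 and 8.41 at ZT3, 8.43 at ZT7, 8.26 at ZT11, 7.86 and 9.20 at ZT15, 7.23 at ZT19 and 8.33 at ZT23, and an amplitude with the block of 0.44 (SE 0.13, peak ZT6.19, adjusted p = 0.263). Cpr67B had levels of 12.43, 11.95 and 11.91 at ZT3, 11.72 at ZT7, 11.62 at ZT11, 11.53 and 12.13 at ZT15, 11.59 at ZT19 and 12.05 at ZT23, and an amplitude with the block of 0.21 (SE 0.05, peak ZT1.36, adjusted p = 0.221). In both genes the highest 2 arrays were those of the 2-array set. Cpr47Ef had levels from 6.22 at ZT19 to 6.96 on ZT15 replicate 2, and an amplitude with the block of 0.27 (SE 0.08, peak ZT8.78, adjusted p = 0.258). For the 7 others (Cpr47Ea, Cpr47Ee, Cpr50Cb, Cpr51A, Cpr62Ba, Cpr66Cb and Cpr76Bc) the amplitude with the block was between 0.06 and 0.25.

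Among the 5 tested Tweedle genes, which encode structural proteins named for a mutant with a short, stout body, TwdlT had the greatest amplitude. TwdlT had levels of 8.50, 7.97 and 7.69 at ZT3, 7.54 at ZT7, 6.80 at ZT11, 6.54 and 7.48 at ZT15, 6.51 at ZT19 and 7.42 at ZT23. The ZT3 arrays were the highest, and both ZT15 arrays lay below them. The ZT15 array of the 2-array set was 0.95 above the other ZT15 array. The amplitude was 0.62 (SE 0.18, peak ZT3.75, adjusted p = 1.0), and with the block 0.65 (SE 0.07, peak ZT3.71, adjusted p = 0.0463). That call was lost in each of the 7 fits that left out 1 further array (adjusted p 0.102 to 0.190).

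The other Tweedle genes had small amplitudes. TwdlV had levels from 5.50 at ZT19 to 6.46 on ZT3 replicate 1 and an amplitude of 0.25 (SE 0.16, unadjusted p = 0.362). TwdlK had levels from 4.73 on ZT15 replicate 2 to 5.82 at ZT19 and an amplitude of 0.24 (SE 0.15, unadjusted p = 0.284). TwdlG had levels from 7.05 to 7.92 and an amplitude of 0.10 (SE 0.17, unadjusted p = 0.835), and TwdlH levels from 6.07 to 6.39 and an amplitude of 0.06 (SE 0.07, unadjusted p = 0.720). With the block, none of the 4 had an unadjusted p under 0.05. The difference in amplitude between TwdlT and these genes was not tested.

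Gasp, whose protein is part of the chitin matrix of tracheae and of other epithelia, was highest at ZT7. It had levels of 10.02, 9.96 and 9.95 at ZT3, 10.36 at ZT7, 9.90 at ZT11, 9.25 and 9.63 at ZT15, 8.72 at ZT19 and 9.36 at ZT23. The arrays from ZT3 to ZT11 all lay above those from ZT15 to ZT23, and the ZT3 arrays differed by less than 0.1. The amplitude was 0.71 (SE 0.10, peak ZT7.18, adjusted p = 0.270), and with the block 0.71 (SE 0.08, peak ZT7.14, adjusted p = 0.0475). Leaving out 1 of the 7 other arrays, the adjusted p with the block was 0.119 to 0.184, and the amplitude 0.62 to 0.77.

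The 3 tested obst genes had fitted peaks between ZT5.63 and ZT8.24. For obst-A, whose protein organises the chitin matrix in larvae, levels were 8.22, 7.28 and 7.52 at ZT3, 7.32 at ZT7, 7.0 at ZT11, 6.29 and 7.63 at ZT15, 5.51 at ZT19 and 5.70 at ZT23. The arrays of the 2-array set were the highest 2, and the ZT19 and ZT23 arrays the lowest 2. The ZT15 and ZT3 arrays overlapped. Its amplitude was 0.99 (SE 0.37, peak ZT7.36, unadjusted p = 0.0732), and with the block 1.01 (SE 0.16, peak ZT7.19, adjusted p = 0.109).

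For obst-B, levels were 5.98, 6.40 and 6.33 at ZT3, 6.36 at ZT7, 6.33 at ZT11, 5.95 and 6.04 at ZT15, 5.63 at ZT19 and 5.38 at ZT23. The ZT19 and ZT23 arrays lay below all others. Its amplitude was 0.50 (SE 0.12, peak ZT8.24, adjusted p = 0.955).

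For obst-E, whose protein shapes the body at pupariation, levels were 10.14, 9.30 and 9.33 at ZT3, 9.11 at ZT7, 9.14 at ZT11, 8.99 and 9.86 at ZT15, 8.75 at ZT19 and 9.12 at ZT23. The 2 highest were those of the 2-array set. Its amplitude was 0.17 (SE 0.21, unadjusted p = 0.712), and with the block 0.20 (SE 0.06, unadjusted p = 0.0317, adjusted p = 0.268). A second obst-E probe set had an amplitude of 0.15 (SE 0.13) in the main test and 0.17 (SE 0.06, unadjusted p = 0.0718) with the block.

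**Figure D3:**
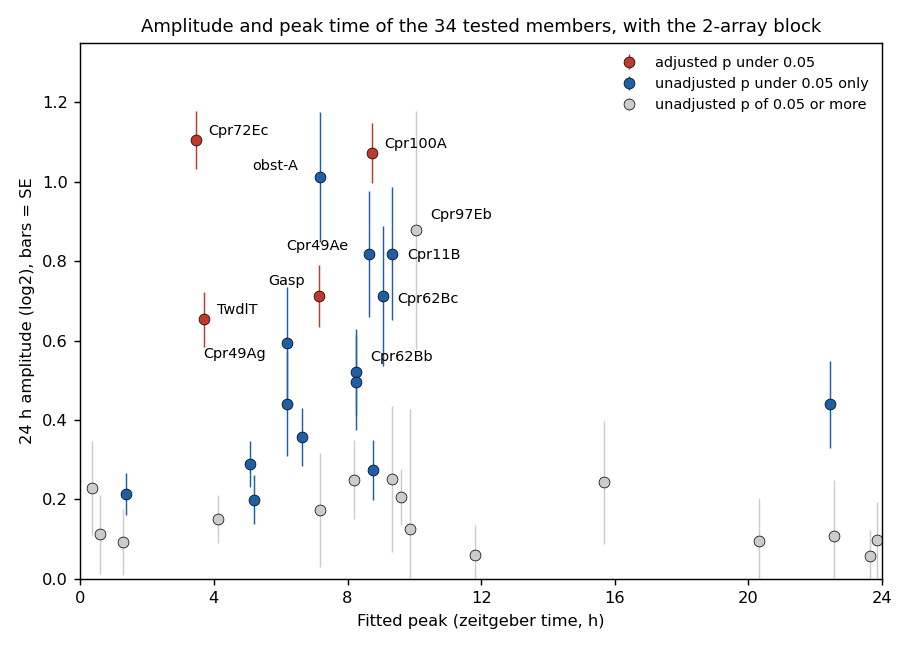
Amplitude (log2, bars are SE) against fitted peak (zeitgeber time, h) for the 34 tested genes, fitted with the 2-array block; red marks an adjusted p under 0.05, blue an unadjusted p under 0.05 only, grey neither. The genes with amplitudes of 0.5 or more peak between ZT3.46 and ZT10.1, and 1 gene peaks between ZT12 and ZT20. Of all probe sets 13.0% peak from ZT12 to ZT16 and 11.7% from ZT16 to ZT20.

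By fitted peak, 22 of the 34 genes lay between ZT3 and ZT10 in the main test, compared with 38.1% of all probe sets, and 22 of 34 with the block, compared with 38.8%. Without the ZT19 array the main test had 13 of 34 there, compared with 30.9%, and the fit with the block 20 of 34, compared with 32.9%. With the block, 13 of the 34 fitted peaks fell in the 4 h after ZT8, where 8.80% of all probe sets peaked. In the 4 h before ZT8 there were 9, where 27.0% did. In the 4 h after ZT12 there was 1, where 13.0% did, and in the 4 h after ZT16 there were 0, where 11.7% did. An amplitude of 0.5 or more was fitted for 11 of 34, compared with 9.37% of all probe sets, and the median amplitude was 0.26 over the 34 genes and 0.16 over all probe sets. Many of these peaks belong to curves with no test passed, so that their times are loosely set. The window from ZT3 to ZT10 was set with these data known.

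Some genes stood out on the ZT11 array alone. These were picked after their values were seen. Cpr97Eb had 6.39, 7.16 and 7.23 at ZT3, 7.24 at ZT7, 9.20 at ZT11, 7.01 and 6.74 at ZT15, 6.87 at ZT19 and 6.64 at ZT23. Its ZT11 level was 1.95 above the next highest. Its neighbour Cpr97Ea, which did not pass the filter, reached 4.55 at ZT11 and 3.41 to 3.95 on the other 8 arrays. Cpr92F, also below the filter, reached 5.97 at ZT11 and 2.76 to 3.53 elsewhere. There is 1 array at ZT11, so these values have no replicate.

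ZT15 and ZT3 are the 2 times with replicates. No gene of the set passed an adjusted p of 0.05 between them (limma, 6 group means), and of all probe sets 0% did. The clock genes Clk, per and tim, with differences of -2.50, 1.98 and 2.08, did not pass either (adjusted p = 0.26 each in that limma test). A gene that did not pass can therefore still differ. At an unadjusted p under 0.05 there were 3 of 34, compared with 2.35% of all probe sets. Lower at ZT15 were 3 of 34 (Cpr72Ec, Cpr49Ag and Gasp), compared with 1.58% of all probe sets, and none of 34 was higher, compared with 0.768%. With the block there were 10 of 34, compared with 12.0% of all probe sets (1451). Lower at ZT15 with the block were 10 of 34, compared with 6.23% of all probe sets (754), and none of 34 was higher, compared with 5.76%. The adjusted p-values of these 10 genes were 0.113 to 0.407, where the smallest of any probe set was 0.113. Without the 2-array set, which leaves 1 ZT15 array and 2 ZT3 arrays, 5 of 34 were lower at an adjusted p under 0.05 (Cpr72Ec, TwdlT, obst-A, Cpr49Ag and Gasp), compared with 5.04% of all probe sets, and 1 was higher (Cpr49Ab), compared with 13.1%. There were 9 of 34 at an unadjusted p under 0.05, compared with 35.7%. That fit assumes that the lone ZT15 array varies like the ZT3 arrays. On these 3 arrays the gut median was 9.41 at ZT15, against 5.82 and 5.66 at ZT3, and the testis and accessory gland median 11.52, against 9.71 and 9.62. The part of these tissues in the differences between ZT15 and ZT3, and in the rhythms with a peak near ZT3, was not tested. After median centring, 1 of 34 had an unadjusted p under 0.05, compared with 0.686%. With the block as well it was 8 of 34, compared with 14.5%, and Cpr72Ec and TwdlT passed the adjusted threshold, compared with 1.69%.

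The largest difference was that of Cpr72Ec. Its level averaged 11.50 ± 0.51 at ZT15 (SD, n = 2) and 13.66 ± 0.20 at ZT3 (SD, n = 3). The difference was -2.16 (SE 0.29, adjusted p = 1.0) and with the block -2.24 (SE 0.14, adjusted p = 0.113). It was -2.02 between the 2 arrays of the 2-array set and -2.41 between the others. TwdlT differed by -1.04 (SE 0.41, adjusted p = 1.0), with -1.02 within the 2-array set and -1.29 within the others.

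The remaining named genes had smaller differences. For obst-A it was -0.72 (SE 0.52), with -0.59 within the 2-array set and -1.11 within the others. Cpr49Ag differed by -0.65 (SE 0.18), with -0.36 and -0.86 in the same order, and Gasp by -0.54 (SE 0.18), with -0.39 and -0.71. These 5 genes were lower at ZT15 in both array sets. For Cpr11B the difference was 0.47 (SE 0.30, unadjusted p = 0.188) and for Cpr62Bc 0.29 (SE 0.22, unadjusted p = 0.242), and neither passed the test. TwdlK differed by -0.45 (SE 0.28), Cpr64Ab by -0.44 (SE 0.17) and Cpr64Ad by -0.41 (SE 0.22).

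**Figure D4:**
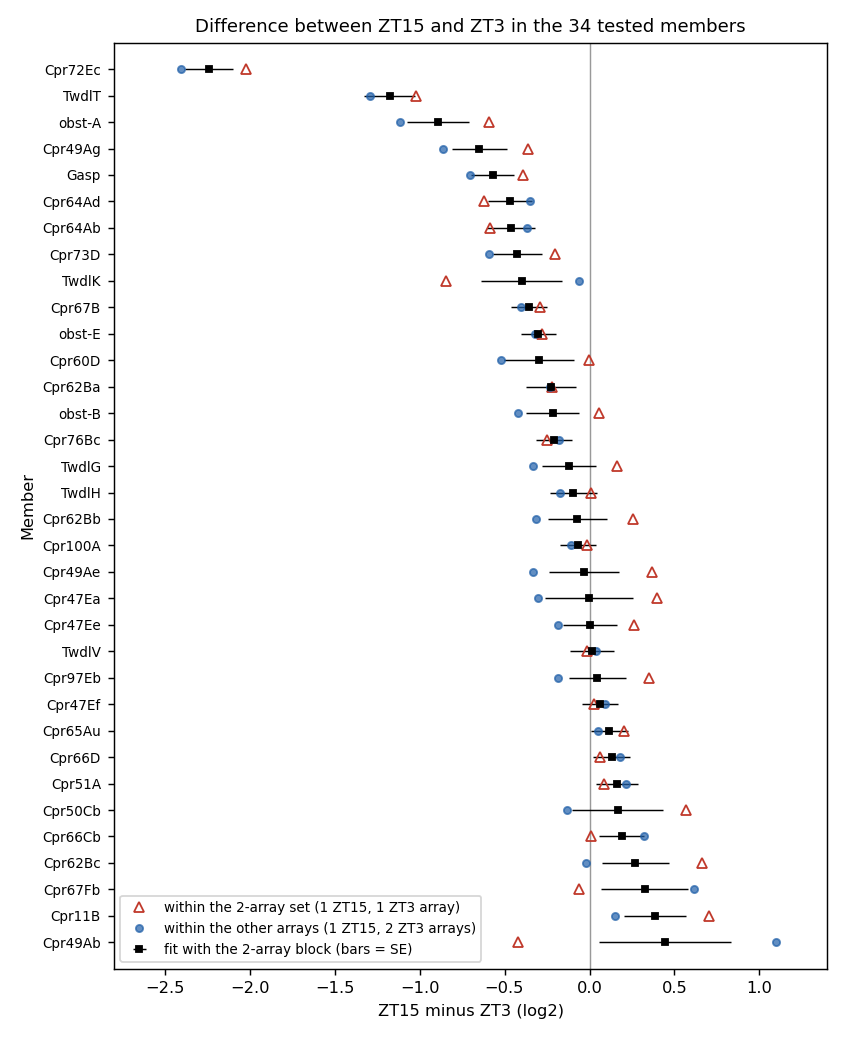
Difference between ZT15 and ZT3 (log2) for each of the 34 tested genes: squares are the fit with the 2-array block (bars are SE), open triangles the difference within the 2-array set and circles that within the other arrays. Cpr72Ec stands apart at -2.24, TwdlT and obst-A follow at -1.18 and -0.89, and the symbols of many genes near 0 lie on both sides of it.

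The median difference was -0.05 over the 34 genes and -0.04 over all 12105 probe sets, and with the block -0.08 and -0.07. Without the 2-array set it was -0.21 over the 34 genes and -0.15 over all probe sets, and 25 of the 34 genes had a difference below 0, compared with 68.3%. Within both array sets 15 of the 34 genes were lower at ZT15 and 6 higher, while 13 went opposite ways. These 3 counts were not made for all probe sets. Both ZT15 arrays lay below all 3 ZT3 arrays for 6 of 34 genes (Cpr72Ec, TwdlT, Gasp, Cpr49Ag, Cpr64Ab and Cpr64Ad), compared with 9.62% of all probe sets, and above them for none, compared with 3.42%.

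The 2-array set held high levels of many of these genes. Its 2 arrays lay above all 7 others for 14 of the 34 genes, compared with 38.6% of all probe sets, so the share is close to that of the array as a whole. They lay below for 2 genes, compared with 17.3%. The genes of this paragraph were picked after their values were seen. Cpr60D had 7.30 and 7.30 in the 2-array set, and from 5.25 to 6.25 on the 7 others. Its amplitude was 0.42 (SE 0.45, unadjusted p = 0.656) in the main test and 0.44 (SE 0.11, peak ZT22.4, unadjusted p = 0.0129, adjusted p = 0.223) with the block. Cpr49Ab had 5.52 and 5.10 in the 2-array set, and from 6.39 to 7.52 on the 7 others, and Cpr67Fb, the other low gene, had 5.11 and 5.05 against 5.67 to 7.45. Testis, accessory gland and gut genes were low on the same 2 arrays, and their part in these levels was not tested.

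Other genes of cuticle formation were looked at in 8 lists. No gene of any list passed an adjusted p of 0.05 in either comparison, with or without the block. At an unadjusted p under 0.05 for the rhythm in the main test, none passed of 5 other structural cuticle genes, 10 genes of chitin synthesis, 12 other chitin-binding genes and 8 genes of cuticle lipids. There were 2 of 20 for chitin modification, 1 of 18 for tanning and pigment, 1 of 5 for the apical matrix and 1 of 9 for epidermal regulators. Of all probe sets 4.33% had such a p. With the block 16.9% of all probe sets had such a p. There were then 1 of 8 for cuticle lipids, 2 of 20 for chitin modification, 3 of 18 for tanning, 2 of 5 for the apical matrix and 2 of 9 for regulators, and none in the other 3 lists. The smallest unadjusted p in those 3 lists in limma's main test was 0.178 for teq, 0.188 for Acp65Aa, which encodes a structural cuticle protein, and 0.271 for Hex-A, which encodes a hexokinase.

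The chitin deacetylase gene serp, whose product limits the length of tracheal tubes, was highest at ZT11. It had levels of 7.07, 7.44 and 7.21 at ZT3, 7.43 at ZT7, 7.60 at ZT11, 6.84 and 6.79 at ZT15, 6.16 at ZT19 and 6.58 at ZT23. As for Gasp, the arrays from ZT3 to ZT11 lay above those from ZT15 to ZT23. Its amplitude was 0.69 (SE 0.11, peak ZT7.85, adjusted p = 0.362), and with the block its adjusted p was 0.0930. Idgf1, a chitinase-like growth factor gene, had an amplitude of 0.26 (SE 0.08, peak ZT2.14, unadjusted p = 0.0356).

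Among tanning genes t, which encodes the hydrolase that frees dopamine and histamine from their beta-alanine conjugates, was highest at ZT3 and lowest at ZT11. It had levels of 13.33, 13.23 and 13.15 at ZT3, 12.23 at ZT7, 11.83 at ZT11, 12.29 and 12.71 at ZT15, 12.87 at ZT19 and 13.06 at ZT23. The ZT23 array lay nearest to the 3 ZT3 arrays. The amplitude was 0.66 (SE 0.14, peak ZT23.3, adjusted p = 0.789). The other gene named from that list, Ddc, which encodes dopa decarboxylase, had an amplitude of 0.22 (SE 0.10, unadjusted p = 0.142).

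In the apical matrix list, cyr, a zona pellucida domain protein gene, had an amplitude of 0.67 (SE 0.15, peak ZT14.1, unadjusted p = 0.00722), and dpy, which encodes a giant matrix protein, one of 0.44 (SE 0.19, unadjusted p = 0.110). Among epidermal regulators the nuclear receptor gene Hr3 had an amplitude of 0.43 (SE 0.14, peak ZT7.61, unadjusted p = 0.0441), and grh, an epidermal transcription factor gene, one of 0.45 (SE 0.19, unadjusted p = 0.107). In the lipid list the fatty acid elongase gene eloF had an amplitude of 2.00 (SE 0.69, unadjusted p = 0.0546), with levels from 3.13 at ZT23 to 7.74 on ZT15 replicate 1. The core clock genes gave the scale of known rhythms on the same arrays. In the main test 3 of 8 passed the adjusted threshold, compared with 0.0330% of all probe sets, and with the block 5 of 8, compared with 0.248%. Clk had an amplitude of 1.28 (SE 0.06, peak ZT2.01, adjusted p = 0.00239), per one of 1.02 (SE 0.08, peak ZT13.7, adjusted p = 0.0230) and cry one of 1.10 (adjusted p = 0.0409). For tim and vri the amplitudes were 1.09 and 1.15 (adjusted p = 0.13 each). Pdp1, cwo and cyc had amplitudes of 0.36, 0.55 and 0.10 and did not pass in the main test.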

How the data were processed

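The deposited table holds 1 value for each of 18952 probe sets on each of 9 arrays. The authors made these values with GCRMA, per the submitters' processing notes, whose version is not given in the sources used here. Their natural log was taken as the authors' log2 value, because the 4 spiked controls (1.5 to 100 pM) then had a slope of 1.03 ± 0.0617 on log2 concentration (SD, n = 9 arrays), while a log2 of the values gave 1.49. If log2 were the true scale, folds would be larger, and directions the same. Platform annotation gave the gene names, brought up to date by Entrez identifier for 13544 of the 13647 probe sets that name 1 gene. Of 105 such symbols in RefSeq, 6 had no probe set of their own (Cpr57A, Cpr65Ax1, Cpr65Ax2, Cpr65Ay, TwdlJ and TwdlU) and were not analysed here, and 4 probe sets naming a gene of the set with another gene were not used. Each gene had the probe set of highest mean; Cpr47Ef and obst-E had 2.

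Computations used Python 3.11.15, R 4.3.3 and limma 3.58.1 (lmFit, eBayes). ZT15 against ZT3 came from 6 group means over the 9 arrays (residual df 3), and the rhythm from limma's moderated F for 24 h cosine and sine terms (residual df 6). Both were fitted on all 12105 probe sets that reached 5 on at least 2 arrays, with two-sided p-values adjusted over all of them by Benjamini-Hochberg (threshold 0.05). The main fits were tested on simulated data with the real residual spread, with 200 of 12105 probe sets changed. At an adjusted p under 0.05, ZT15 against ZT3 recovered 0% of differences of 1, 51% of differences of 2 and 88% of differences of 4. The rhythm test recovered 68% of amplitudes of 1 and 86.5% of amplitudes of 2. The number of arrays limits the precision. The genes, lists, tests and the window from ZT3 to ZT10 were chosen with earlier results of these data known, so no pattern here is independent of them. Named genes were the 5 markers Cpr72Ec, Cpr100A, Gasp, TwdlT and obst-A, those past an adjusted p in either comparison, the 10 of smallest p in each, the 2 of highest mean in each family, all tested Twdl and obst genes, and in each cuticle list up to 2 of smallest rhythm p. Others, except the core clock genes and Yp1, are marked as picked after their values were seen. Alternatives were the 2-array block, leaving out arrays, median centring, quantile normalization, other filters, log2 of the deposited values, averaged probe sets, 1 mean per time, time as a factor and the replicate number as a block.

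The deposited labels number the replicates at ZT3 and ZT15. Over 12105 probe sets the deviations from the group means correlated at -0.865 and -0.812 between same-numbered arrays. The 2-array set holds arrays of different numbers, ZT3 replicate 1 and ZT15 replicate 2. The correlations therefore cannot tell whether same-numbered arrays belong together in another way. The main test did not pair arrays by number.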

Additional observations from a re-analysis of the deposited data

How the results depend on the processing

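For ZT15 against ZT3, no gene of the set passed the adjusted threshold in the main test, nor under quantile normalization, no filter, a filter of 7, log2 of the deposited values or averaged probe sets. There were 6 without the 2-array set, 2 with the block and median centring, 0 to 1 when arrays were left out, with or without the block, and 0 with the block alone. At an unadjusted p there were 3 in the main test and 10 with the block, 9 without the 2-array set, 1 after median centring, 8 with block and centring, 10 with the block and no filter and 10 with the block and quantile normalization. Leaving out 1 array gave 1 to 6 in the main test and 4 to 10 with the block. For the rhythm, 0 passed the adjusted threshold in the main test, 4 with the block and 4 without the 2-array set, and 2 each with the block and median centring, no filter or quantile normalization (Cpr72Ec and Cpr100A in each). Leaving out 1 array gave 0 to 2 in the main test (2 without ZT15 replicate 2, Cpr72Ec and Gasp) and 0 to 1 with the block. At an unadjusted p there were 10 in the main test, 18 with the block, 18 without the 2-array set, 3 after centring and 6 with time as a factor, and 19 each with the block and centring, no filter or quantile normalization. Leaving out 1 array gave 7 to 16 in the main test and 15, 16, 17 or 18 with the block. The share of all probe sets moved between fits as well. For the rhythm at an unadjusted p it was 4.33% in the main test and 16.9% with the block. Without the ZT19 array it was 2.52%, and 12.1% with the block as well. For ZT15 against ZT3 it was 2.35% and 12.0% with the block. For the fits without another array the share is not given. Nor is it given for quantile normalization, no filter, a filter of 7, log2 of the deposited values, averaged probe sets or time as a factor. The counts of all these fits, with or without the block, cannot be read as particular to these genes.

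The replicate number as a block gave 0 genes of the set at an adjusted p and 1 at an unadjusted p under 0.05, and 23 of 12105 probe sets at an unadjusted p. With the pairing crossed, deviations correlate at 0.865 and 0.812, and the pair at 0.865 is the 2-array set. With 2 ZT15 arrays the deviations of 1 are the negatives of the other. The crossed values are therefore those of the same-numbered arrays with the sign turned, and add no evidence.

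Differences between ZT15 and ZT3 that turned sign were all of genes with no adjusted p under 0.05 for that difference in any fit run. Cpr49Ae (0.03 in the main test) was -0.0331 with the block, -0.335 without the 2-array set, -0.0322 after centring and -0.167 with both; leaving out 1 array gave -0.367 to 0.434, and -0.0154 with the block and no ZT3 replicate 2. TwdlV (0.07) was -0.0381 after quantile normalization, -0.121 with block and centring and -0.150 with block and quantile normalization; leaving out 1 array gave -0.0830 to 0.223, and -0.0500 and -0.0170 with the block and no ZT3 replicate 2 or ZT15 replicate 1. Cpr62Bc was -0.0231 without the 2-array set. Cpr65Au was -0.0175 with block and centring, and -0.198 to 0.705 with 1 array left out. With 1 array left out, obst-E ran from -0.595 to 0.274, and TwdlG from -0.381 to 0.264. With the block and no ZT15 replicate 1, TwdlG was 0.161, obst-B 0.0551 and TwdlH 0.0100. Fitted peaks moved by over 6 h for TwdlG without the ZT11 array and obst-E without the ZT19 array; their amplitudes with 1 array left out ran from 0.0672 to 0.241 and from 0.104 to 0.346. The causes were not tested.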
